A study of Sus scrofa with 40 samples.

Results

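The nuclear-encoded subunits of oxidative phosphorylation were followed by complex in liver and in backfat of pigs that differed in feed efficiency and in feeding. Probe sets were chosen by symbol: those to which the platform annotation gives a single gene symbol, and whose symbol names a subunit of NADH dehydrogenase (NDUF with a letter and number), succinate dehydrogenase (SDHA to SDHD), the cytochrome bc1 complex (UQCR, CYC1), cytochrome c oxidase (COX4 to COX8) or ATP synthase (ATP5). The rule uses symbols and no intensity. This gave 74 of the 23999 probe sets that are not controls, for 59 genes: 32 genes of complex I, 4 of complex II, 2 of complex III, 7 of complex IV and 14 of complex V. For the 12 genes with several probe sets, the probe set that was brightest on average over both tissues stands for the gene below, and the others are described where they differ.

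Oxidative phosphorylation takes place in the inner mitochondrial membrane. Complex I takes electrons from NADH and complex II from succinate, complex III passes them on to cytochrome c, and complex IV hands them to oxygen. Complexes I, III and IV pump protons, and complex V lets the protons flow back through its rotating c-ring to make ATP. White adipocytes hold fewer mitochondria than hepatocytes, and use them among other things to supply citrate and ATP for fat synthesis.

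The animals were 20 prepubertal Yorkshire gilts, 6 months old, from lines of low or high residual feed intake (RFI): how much more or less a pig eats than its growth and upkeep predict. In each line, restricted gilts were given 80% of maintenance feed for 8 days, and the others ate ad libitum. The 8 groups of 5 arrays were backfat of low RFI restricted, low RFI ad libitum, high RFI restricted and high RFI ad libitum gilts, and liver of the same 4 kinds. All groups share 1 trait besides breed, age and sex: the labels describe gilts heterozygous for a variant of MC4R, a melanocortin receptor that acts on appetite (39 of 40 samples say heterozygous in so many words). The backfat was the middle layer at the 10th rib. The labels do not tie a backfat array to the liver array of the same gilt. Tests between tissues therefore treated the 40 arrays as independent, although the gilts numbered 20. Each p-value sets a difference against the spread between arrays within groups.

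Each array was a 1-colour Affymetrix porcine array, and values are log2 intensities scaled by the authors to a common array mean. A probe set was tested in a tissue where 5 or more of the 20 arrays had it above their 40th percentile. A change was called at a Benjamini-Hochberg adjusted p under 0.05 over all probe sets tested (limma). All 59 genes were tested in both tissues. The tissue labels matched their markers: the mean of 8 adipocyte markers lay between 11.73 and 12.78 on the backfat arrays and between 4.68 and 5.90 on the liver arrays. Hepatocyte markers averaged 12.29 on 1 backfat array, low RFI restricted replicate 5, against 4.86 to 8.18 on the other backfat arrays and 14.47 to 15.11 in liver. Skeletal muscle markers (16 of 22 measured) averaged from 4.89 to 12.73 on the backfat arrays and from 4.47 to 5.10 on the liver arrays. After subtraction of the group means, the first principal component held 19.1% of the remaining variance in backfat and 21.3% in liver. Replicate numbers 1 and 2 differed from 3, 4 and 5 in the log2 ratio of the 3' to the 5' signal of an actin control pair. In liver it ran from 1.89 to 2.55 on numbers 1 and 2, and from 1.11 to 1.71 on the others. In backfat the ranges were 1.78 to 3.44 and 1.32 to 1.82, which overlap narrowly. A second actin pair showed no such split. In liver its ratio ran from -3.30 to 0.22 on numbers 1 and 2, and from -3.52 to -0.92 on the others. Because of the first pair, results are also given within each set of numbers.

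In restricted backfat, transcripts of all 5 complexes were lower. Of the 59 genes, 45 were lower in restricted than in ad libitum backfat and none was higher. Over all 15498 probe sets tested, 10.7% were called lower and 15.1% higher, with a median log2 difference of 0.08, against a median of -0.64 for the 59 genes. The difference lay below 0 for 57 of the 59 genes, against 39.6% of all probe sets. In bulk tissue, fewer cells of a type and less RNA per cell cannot be told apart.

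By complex, 26 of 32 genes of complex I, 4 of 4 of complex II, 2 of 2 of complex III, 4 of 7 of complex IV and 9 of 14 of complex V were lower. The median log2 difference was -0.64 in complex I, -0.77 in complex II, -0.81 in complex III, -0.68 in complex IV and -0.56 in complex V. After quantile normalization these medians were -0.59, -0.64, -0.72, -0.53 and -0.43, and that of all probe sets was 0.02 in place of 0.08. The size of the change therefore depends in part on the scaling. The genes of complex I spread from -1.06 to -0.15, those of complex V from -0.85 to 0.13, and those of complex IV from -0.86 to 0.76. No test compared the complexes with each other.

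**Figure D1:**
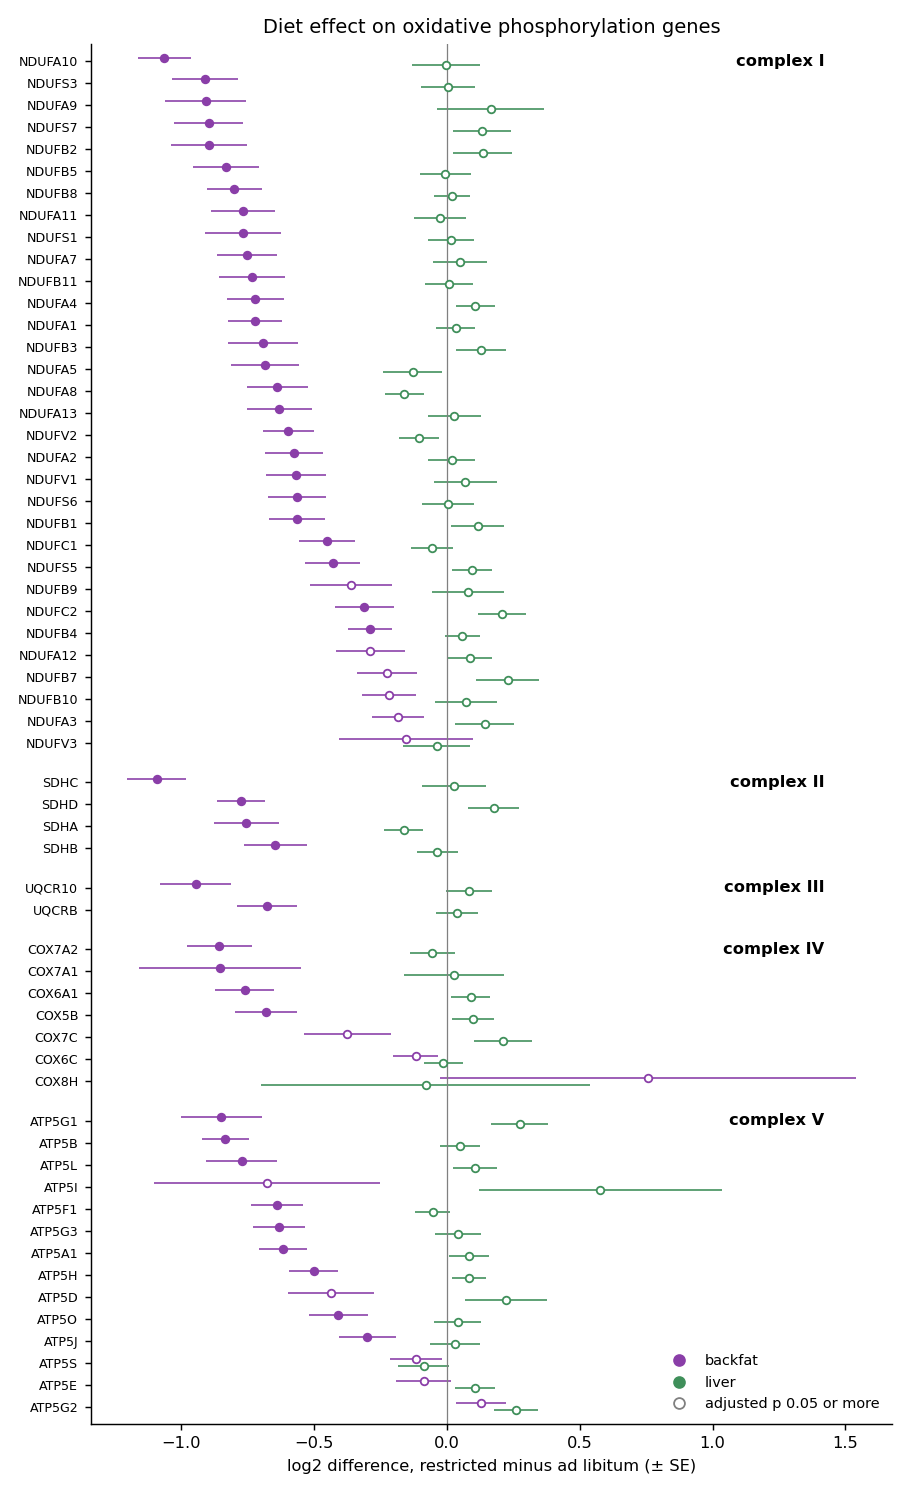
Log2 difference between restricted and ad libitum gilts for each of the 59 genes, by complex, with its standard error, in backfat (purple) and liver (green). Filled points passed an adjusted p of 0.05: 45 genes in backfat, all to the left of 0, and none in liver.

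The same count was 41 lower within arrays numbered 3 to 5 (median -0.72; 8.07% of all probe sets) and 18 lower within arrays numbered 1 and 2 (median -0.55; 1.99% of all probe sets), a set with 2 arrays per group. A GAPDH control ratio, the log2 signal of the 3' over the 5' control probe set, moved with diet in the same arrays. It averaged 1.88 ± 0.52 in restricted and 1.19 ± 0.37 in ad libitum backfat (SD, n = 10 each; exact permutation test within lines, two-sided, p = 0.00441, adjusted over 12 control measures 0.0529). A second GAPDH control pair differed by -0.03 (exact p = 0.858) and the first actin pair by 0.10 (exact p = 0.718). When both control ratios entered as covariates, 38 genes were lower (5.94% of all probe sets) and the median was -0.48. In a fit chosen after seeing the data, with the set of numbers, both ratios and the muscle marker mean as covariates together, 8 genes were lower (1.51% of all probe sets) and the median was -0.33. They were NDUFA1, NDUFA5, NDUFA10, NDUFB8, SDHC, SDHD, UQCR10 and ATP5B.

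Each of the 4 genes of complex II was lower in restricted backfat. SDHA carries the flavin that oxidises succinate, SDHB holds the iron-sulphur clusters, and SDHC and SDHD anchor the enzyme in the membrane. The log2 intensity of SDHC was 10.98, 11.13, 10.81, 10.72 and 10.98 in low RFI restricted backfat, against 12.01, 12.17, 12.05, 12.30 and 12.14 in low RFI ad libitum backfat. In the high RFI line SDHC stood at 11.21, 11.43, 10.94, 11.37 and 10.87 in restricted backfat, against 12.42, 12.32, 11.46, 12.33 and 12.17 in ad libitum backfat. Every restricted array lay below every ad libitum array, as it did for 1.01% of all probe sets tested. SDHC was 2.13-fold lower (log2 difference -1.09 ± 0.11, SE, adjusted p = 1.718e-06), and it was called in all 33 alternative fits.

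SDHD was lower by a log2 difference of -0.78 ± 0.09 (SE, adjusted p = 7.067e-06), with arrays from 11.82 to 12.62 under restriction and from 12.60 to 13.11 ad libitum. SDHA changed by -0.76 ± 0.12 (adjusted p = 0.0001699), and its second probe set by -0.77. SDHB changed by -0.65 ± 0.12 (adjusted p = 0.000524). A dimmer second probe set of SDHB ran the other way without being called, at 0.24 ± 0.09 (adjusted p = 0.0558), so the value for SDHB depends on the probe set. With the joint covariates SDHB stood at -0.10 (adjusted p = 0.713) and SDHA at -0.47 (adjusted p = 0.0857). SDHB also missed the threshold on arrays numbered 1 and 2 (-0.58, adjusted p = 0.0616), and SDHA on the 9 arrays with a muscle marker mean under 8 (-0.63, adjusted p = 0.0732). Over the 4 genes, the mean log2 intensity of complex II ran from 11.69 to 12.06 in restricted backfat and from 12.08 to 12.88 in ad libitum backfat.

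**Figure D2:**
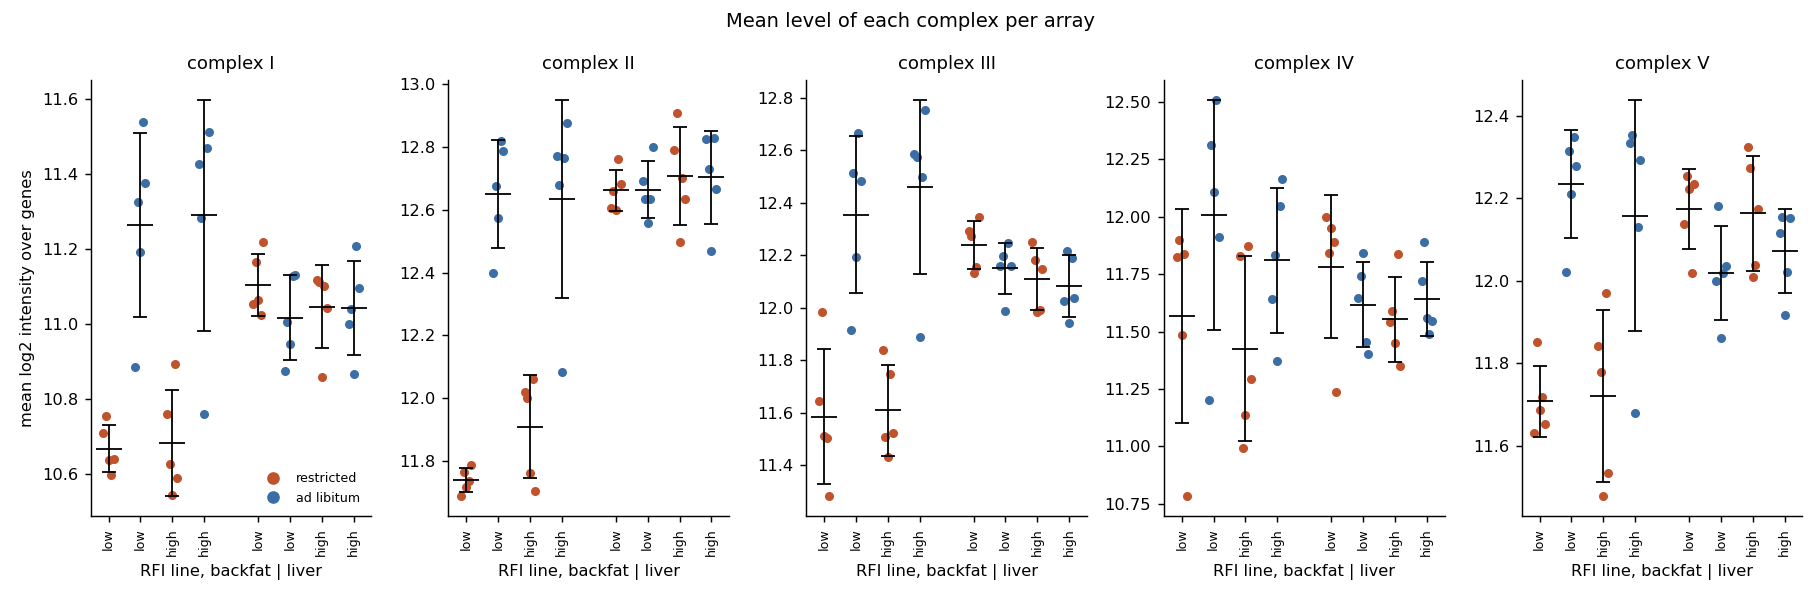
Mean log2 intensity over the genes of each complex on each array, for restricted (red) and ad libitum (blue) gilts of the low and high RFI lines, with backfat left and liver right in each panel. Bars give the mean ± SD of 5 arrays. In backfat the restricted arrays of complex II lie between 11.69 and 12.06, below all ad libitum arrays (12.08 to 12.88), and in liver the diets overlap in each of the 5 complexes.

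Complex I has 7 nuclear-encoded core subunits, among them those that hold the flavin and the iron-sulphur clusters, and a larger set of accessory subunits around them. All 5 core subunits on the array (NDUFS1, NDUFS3, NDUFS7, NDUFV1 and NDUFV2) were lower in restricted backfat by their brightest probe sets, with a median log2 difference of -0.77. For NDUFV2 this depends on the probe set, as given below. Of the 27 other genes with an NDUF symbol, counted here as accessory subunits and NDUFA4 among them, 21 were lower, with a median of -0.63. This grouping by role was made with the values known and was not tested.

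NDUFA10, an accessory subunit, had the smallest p of the complex. Its log2 intensity ran from 9.20 to 9.85 (median 9.48) in restricted backfat and from 10.13 to 10.82 (median 10.55) in ad libitum backfat, with no overlap. It was 2.09-fold lower (log2 difference -1.06 ± 0.10, adjusted p = 8.228e-07). NDUFS3 and NDUFS7 are core subunits of the module where ubiquinone is reduced. NDUFS3 had a median of 10.48 in restricted and 11.57 in ad libitum backfat (-0.91 ± 0.13, adjusted p = 3.329e-05), and a second probe set of the gene changed by -0.94, while another, dim one stood at 0.08 (adjusted p = 0.786). NDUFS7 had a median of 9.89 in restricted and 10.89 in ad libitum backfat (-0.90 ± 0.13, adjusted p = 6.426e-05).

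Other accessory subunits fell as well. NDUFB8 fell by 0.80 ± 0.10 on the log2 scale (adjusted p = 2.061e-05) and NDUFB5 fell by 0.83 ± 0.12 (adjusted p = 8.25e-05). NDUFA1 fell by 0.72 ± 0.10 (adjusted p = 4.418e-05), and its second probe set fell by 0.49 (adjusted p = 0.029). NDUFA7 fell by 0.75 ± 0.11 (adjusted p = 8.253e-05) and NDUFA4, which later work assigns to complex IV, by 0.72 ± 0.11 (adjusted p = 8.481e-05). The arrays of the 2 diets overlapped for each of these 5 genes.

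Not every gene of complex I passed. NDUFA12, NDUFA3, NDUFB10, NDUFB7, NDUFB9 and NDUFV3 had differences from -0.36 to -0.15 with adjusted p from 0.0885 to 0.701. NDUFV3 was the least changed by p (-0.15 ± 0.25), with arrays from 5.38 to 7.78 under restriction and from 6.19 to 7.62 ad libitum. NDUFV2, a core subunit with an iron-sulphur cluster, was the only member called in both directions. Its brightest probe set fell by 0.60 ± 0.09 (adjusted p = 0.00014), whereas a dimmer probe set was higher by 0.51 ± 0.11 (adjusted p = 0.00264), with medians of 8.62 in restricted and 8.12 in ad libitum backfat. With the median over the probe sets of a gene in place of the brightest one, NDUFV2 stood at -0.04 (adjusted p = 0.764). Of the 9 genes with 2 or more tested probe sets, all tested probe sets were called lower for 4 (ATP5L, NDUFA1, NDUFB3 and SDHA).

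Complex III was represented by small subunits only. UQCR10, a small subunit beside cytochrome c1, ran from 10.70 to 11.64 (median 11.20) in restricted and from 11.55 to 12.57 (median 12.24) in ad libitum backfat, so the diets overlapped narrowly. It was 1.93-fold lower (-0.95 ± 0.13, adjusted p = 4.418e-05). UQCRB, which lies near a ubiquinone site, fell by 0.68 ± 0.11 (adjusted p = 0.00023). Within arrays numbered 1 and 2 the differences were -0.80 and -0.51, with adjusted p of 0.052 and 0.155.

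The genes of complex IV were divided. COX7A2, the widely expressed form of subunit 7A, had a median of 11.36 in restricted and 12.25 in ad libitum backfat, and the highest restricted array (11.52) met the lowest ad libitum array (11.52). It fell by 0.86 ± 0.12 on the log2 scale (adjusted p = 5.27e-05). COX6A1, the widely expressed form of subunit 6A, fell by 0.76 ± 0.11 (adjusted p = 5.72e-05) and COX5B, which binds zinc on the matrix side, by 0.68 ± 0.12 (adjusted p = 0.00029).

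COX6C and COX7C, also small subunits of complex IV, were not called. COX6C stood at -0.12 ± 0.08 (adjusted p = 0.317), with medians of 13.44 in restricted and 13.62 in ad libitum backfat. COX7C stood at -0.38 ± 0.16 (adjusted p = 0.0954), and its second probe set at -0.10. COX6C and COX7C are among the brighter members, with array values between 12.44 and 13.86. Members as bright were called lower all the same: ATP5A1 and COX6C both averaged 13.50 over all arrays.

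**Figure D3:**
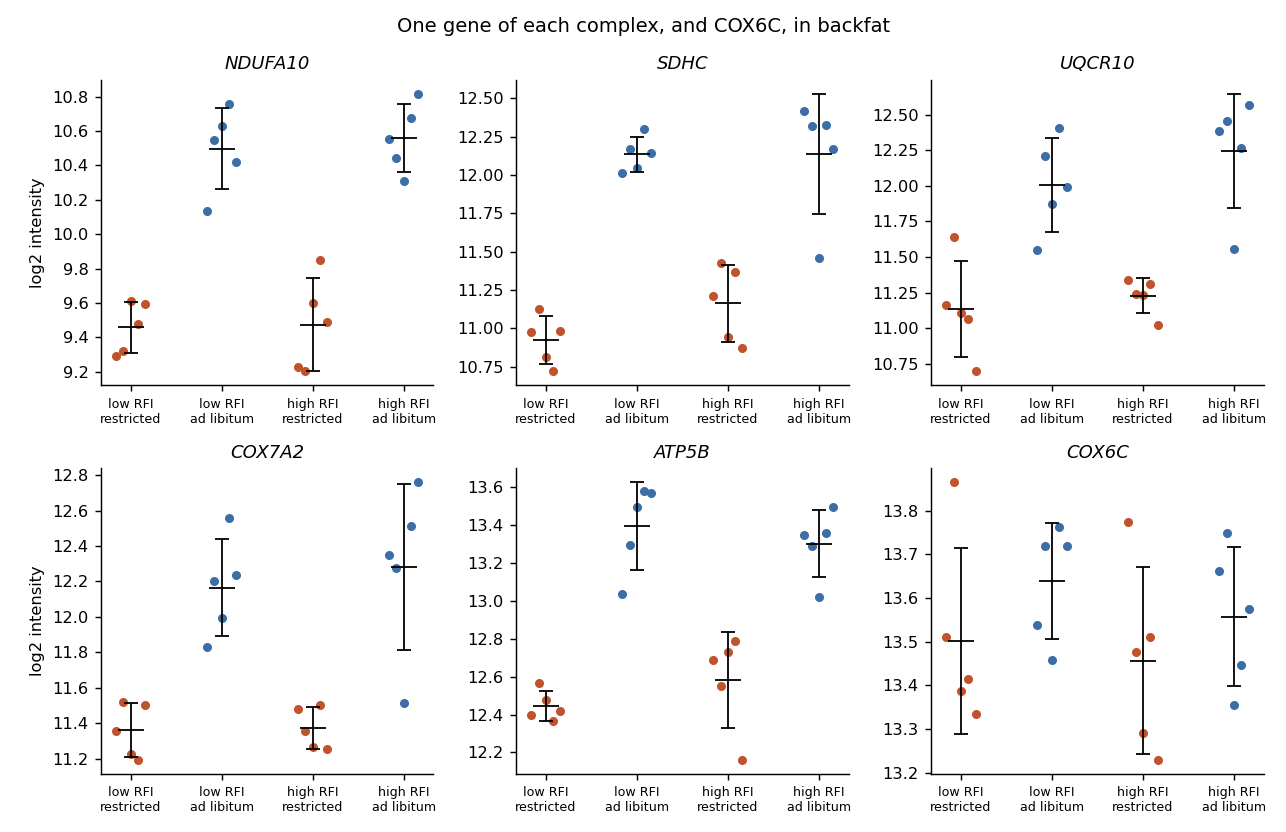
Log2 intensity of 6 genes on each backfat array, by line and diet, with the mean ± SD of 5 arrays. NDUFA10, SDHC and ATP5B show no overlap between restricted (red) and ad libitum (blue) arrays, UQCR10 and COX7A2 overlap narrowly, and COX6C (log2 difference -0.12) overlaps widely.

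COX7A1 and COX8H are the heart and muscle forms of subunits 7A and 8 (the heart form of subunit 8 was described in cattle), and the backfat arrays varied in muscle signal. The muscle marker mean was 5.55 to 12.73 in restricted backfat and 4.89 to 11.80 in ad libitum backfat (difference 0.63, exact permutation p = 0.578). It was 2.17 higher in low than in high RFI backfat (exact permutation p = 0.0708, adjusted over 12 control measures 0.266). COX8H moved with it: on the 9 backfat arrays with a muscle mean under 8 it lay between 3.85 and 6.73, and on the other 11 between 7.07 and 10.31. COX8H was higher under restriction by 0.76 ± 0.78 (adjusted p = 0.514), which is within its spread, and the value was -0.34 without the arrays of muscle mean 8 or more. COX7A1 did not separate in this way, with 9.25 to 11.71 on the 9 arrays and 9.24 to 11.70 on the other 11. It was also bright in liver, where muscle markers were low, with group means from 11.16 to 11.24. Its signal here is therefore not a measure of muscle.

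COX7A1 had a median of 9.93 in restricted and 11.21 in ad libitum backfat. It passed narrowly, at -0.85 ± 0.30 (adjusted p = 0.0437), and lost its call in 21 of 33 alternatives. Over all 33 its adjusted p ran from 0.00284 to 0.977. Its log2 ratio to COX7A2 was -1.22 ± 0.64 in restricted and -1.23 ± 0.55 in ad libitum backfat (SD, n = 10 each), a difference of 0.00 (exact permutation p = 0.989). That difference changed sign between settings. It was -0.40 within arrays numbered 1 and 2 and 0.275 within those numbered 3 to 5. On the arrays with a muscle marker mean under 8 it was -0.62, and with the joint covariates 0.36. The ratio therefore does not show that the 2 genes changed alike. Among the 9 arrays with little muscle signal, 37 of the 59 genes were lower under restriction (4.28% of all probe sets), with a median of -0.75. That set holds only 1 low RFI restricted array, the one with the hepatocyte signal.

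**Figure D4:**
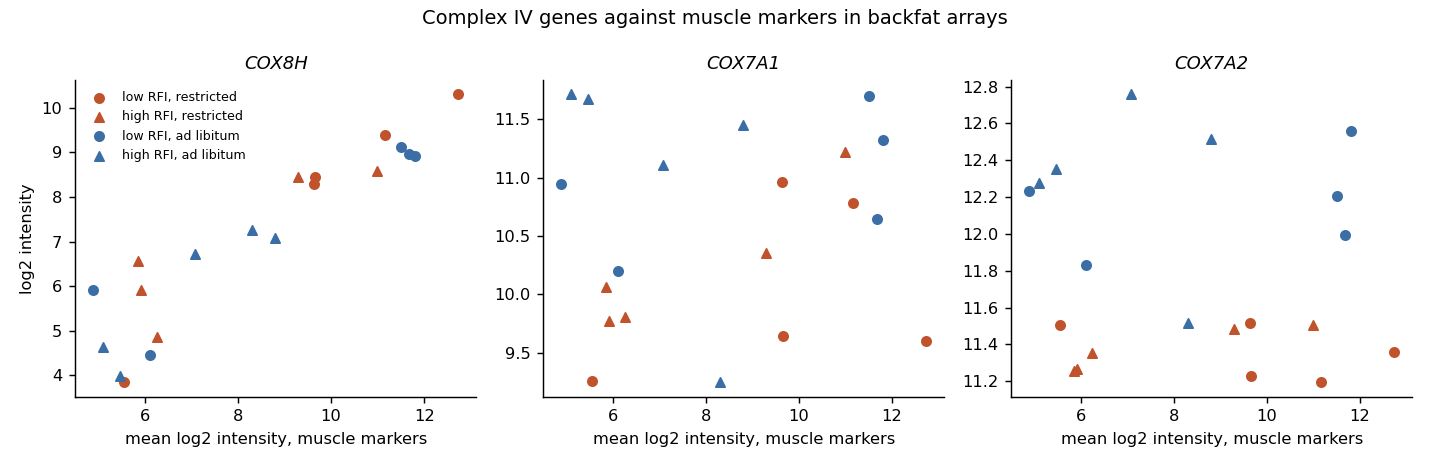
Log2 intensity of COX8H, COX7A1 and COX7A2 on the 20 backfat arrays against the mean log2 intensity of 16 skeletal muscle markers, by diet (red restricted, blue ad libitum) and line (circles low RFI, triangles high RFI). COX8H stays between 3.85 and 6.73 where the muscle mean is under 8 and between 7.07 and 10.31 elsewhere, while COX7A2 shows no such step.

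In complex V the catalytic head and the outer stalk fell. ATP5B, the catalytic beta subunit, ran from 12.16 to 12.79 (median 12.51) in restricted and from 13.02 to 13.58 (median 13.35) in ad libitum backfat, with no overlap. It was 1.78-fold lower (-0.84 ± 0.09, adjusted p = 2.849e-06). ATP5A1, the alpha subunit that alternates with beta, fell by 0.62 ± 0.09 (adjusted p = 7.767e-05). ATP5D and ATP5E, the delta and epsilon subunits of the central stalk, were not called, at -0.44 ± 0.16 (adjusted p = 0.0518) and -0.09 ± 0.10 (adjusted p = 0.58). ATP5E was among the brightest members, from 13.26 to 13.99 under restriction and from 13.27 to 14.17 ad libitum.

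All 4 measured genes of the peripheral stalk, which holds the head still, were lower: ATP5F1 (subunit b), ATP5H (d), ATP5J (F6) and ATP5O (the oligomycin sensitivity subunit). ATP5F1 fell by 0.64 ± 0.10 (adjusted p = 9.591e-05) and ATP5J fell by 0.30 ± 0.11 (adjusted p = 0.0441). ATP5L, subunit g, fell by 0.77 ± 0.13 (adjusted p = 0.0003014), and its other 2 probe sets by 1.10 and 0.98. ATP5I, subunit e, was noisy at -0.68 ± 0.42 (adjusted p = 0.254), with arrays from 7.55 to 9.91 under restriction and from 8.00 to 11.07 ad libitum. ATP5S, coupling factor B and not a structural subunit, stood at -0.12 ± 0.10 (adjusted p = 0.409).

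The c-ring is built from a single mature protein that ATP5G1, ATP5G2 and ATP5G3 all encode, with different import sequences. The 3 genes did not change alike. ATP5G1 had log2 intensities of 11.71, 11.01, 10.77, 10.77 and 10.65 in low RFI restricted backfat, against 11.40, 11.92, 11.67, 12.16 and 12.00 in low RFI ad libitum backfat. In the high RFI line it had 11.20, 11.19, 10.80, 11.09 and 10.76 in restricted backfat, against 12.10, 11.96, 11.01, 12.19 and 12.02 in ad libitum backfat. Low RFI restricted replicate 1 was high for its group and high RFI ad libitum replicate 3 low, and both cause the overlap. ATP5G1 fell by 0.85 ± 0.15 (adjusted p = 0.00047).

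ATP5G3 ran from 12.57 to 13.15 (median 12.79) in restricted and from 12.96 to 13.74 (median 13.53) in ad libitum backfat, and fell by 0.63 ± 0.10 (adjusted p = 0.000105). ATP5G2 had 11.95, 12.17, 12.32, 12.43 and 12.32 in low RFI restricted backfat, against 12.08, 12.25, 12.10, 12.26 and 12.38 in low RFI ad libitum backfat. In the high RFI line it had 12.57, 12.36, 11.76, 12.53 and 12.35 in restricted backfat, against 12.07, 12.12, 11.97, 11.95 and 12.28 in ad libitum backfat. Unlike the other 2 genes it overlapped widely between diets, at 0.13 ± 0.09 (adjusted p = 0.336).

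The difference itself was tested as a ratio within each array, over 4 isoform pairs. The log2 ratio of ATP5G1 to ATP5G2 was -1.28 ± 0.43 in restricted and -0.30 ± 0.34 in ad libitum backfat (SD, n = 10 each; exact permutation test within lines, two-sided, p = 0.000346, adjusted p = 0.000692). The ratio of ATP5G3 to ATP5G2 was 0.57 ± 0.25 in restricted and 1.33 ± 0.18 in ad libitum backfat (exact p = 3.15e-05, the smallest that 63504 arrangements can give, adjusted p = 0.000126). ATP5G1 against ATP5G3 changed by -0.22 (exact p = 0.0583, adjusted p = 0.0777). The probe sets have their own sensitivities, so a ratio shows unequal change and not the make-up of the c-ring. The first ratio changed by -0.70 within arrays numbered 1 and 2 and by -1.16 within those numbered 3 to 5, the second by -0.60 and -0.87, and with the control ratios as covariates they changed by -0.67 and -0.70. With the joint covariates they changed by -0.59 and -0.64.

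**Figure D5:**
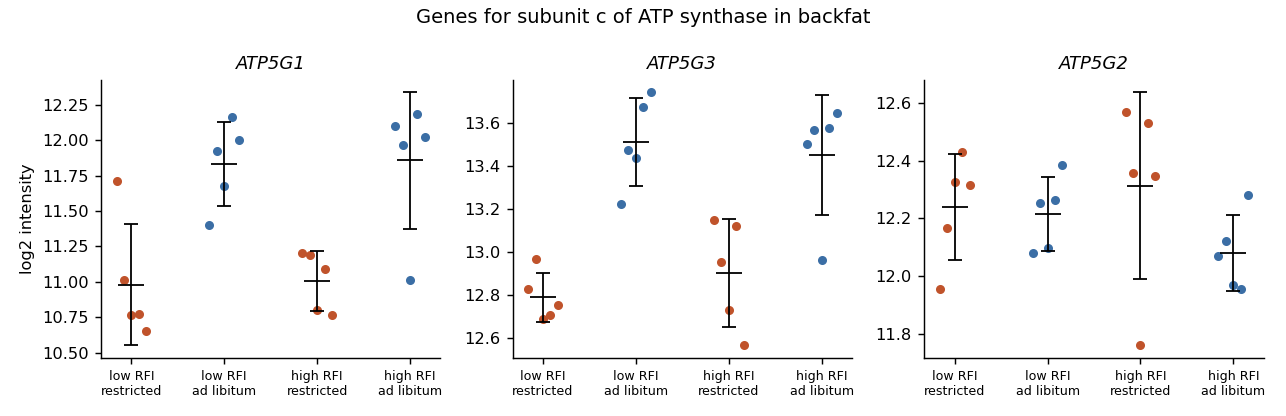
Log2 intensity of the 3 genes for subunit c of ATP synthase on each backfat array, by line and diet, with the mean ± SD of 5 arrays. ATP5G1 and ATP5G3 are lower under restriction (log2 differences -0.85 and -0.63), and ATP5G2 is not (0.13).

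Both lines showed the change. Restricted backfat had 39 genes lower in the low RFI line (4.83% of all probe sets) and 38 lower in the high RFI line (4.55% of all probe sets), and none higher in either (4.37% and 4.47% of all probe sets), with medians of -0.67 and -0.63. Every restricted array lay below every ad libitum array for 28 genes in the low RFI line (4.27% of all probe sets) and for 8 in the high RFI line (3.19% of all probe sets), where ad libitum replicate 3 lay near the restricted arrays. The mean log2 intensity of the 59 genes on that array was 11.18, against 11.74 to 11.91 on the other high RFI ad libitum arrays and 10.95 to 11.37 on the high RFI restricted arrays. Without that array 50 genes were lower over both lines (median -0.72; 11.8% of all probe sets).

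The diet effect was not shown to differ between lines. None of the 59 genes, and 0% of all probe sets, had an interaction of diet and line in backfat (limma; no gene at an unadjusted p under 0.05, against 1.57% of all probe sets). The differences between the lines' diet effects ran from -0.36 for COX8H to 0.39 for ATP5I, with a median of -0.04. The smallest p belonged to ATP5B, whose diet effect was -0.95 in low and -0.72 in high RFI gilts (difference -0.23 ± 0.18). NDUFA3 (0.23 ± 0.20) and ATP5G2 (-0.21 ± 0.19) came next.

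No difference between lines was called either. Low minus high RFI gave no call among the 59 genes in backfat (0.0194% of all probe sets) or in liver (0.0447%), with medians of -0.03 and 0.03. At an unadjusted p under 0.05 there was 1 gene in backfat (7.78% of all probe sets) and none in liver (6.53%). That gene was ATP5D, with a median of 11.06 in low and 10.88 in high RFI backfat (0.42 ± 0.16, adjusted p = 0.487). COX8H followed at 1.36 ± 0.78 (adjusted p = 0.739), in the line with the higher muscle marker mean, and stood at -0.17 with that mean as a covariate. NDUFB9 stood at 0.21 ± 0.15 (adjusted p = 0.82). In liver the 3 genes of smallest p were NDUFV3 (-0.25 ± 0.13), NDUFC1 (0.16 ± 0.08) and NDUFS6 (0.19 ± 0.10), with adjusted p from 0.787 to 0.794.

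In liver the same restriction gave no call among the 59 genes, against 0.919% of all 15677 probe sets tested (limma; 5 genes at an unadjusted p under 0.05, against 12.4% of all probe sets). The median log2 difference was 0.05, and 44 genes lay above 0 and 15 below, against 46.6% of all probe sets below 0. The mean of complex I ran from 10.86 to 11.22 in restricted and from 10.87 to 11.21 in ad libitum liver. That of complex II ran from 12.50 to 12.91 in restricted and from 12.47 to 12.83 in ad libitum liver.

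By p, the c-ring genes ATP5G2 and ATP5G1 came nearest to a call in liver, while ATP5G3 stood at 0.04 ± 0.09 (adjusted p = 0.91). ATP5G2 ran from 12.13 to 12.71 (median 12.48) in restricted and from 11.88 to 12.37 (median 12.22) in ad libitum liver, higher by 0.26 ± 0.08 (adjusted p = 0.147). It was called with the control ratios as covariates (0.32, adjusted p = 0.0418). ATP5G1 stood at 0.27 ± 0.11 (adjusted p = 0.269). SDHA and NDUFA8 stood at -0.16 each (adjusted p = 0.359 and 0.362), and NDUFC2 at 0.21 (adjusted p = 0.346). The interaction of diet and line gave no call in liver (limma; no gene at an unadjusted p under 0.05, against 3.35% of all probe sets), with the smallest p for NDUFB8 (0.27 ± 0.14), ATP5I (1.65 ± 0.91) and NDUFA5 (0.40 ± 0.22), all at an adjusted p of 0.999.

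The tissues differed in their response when tested against each other over all 40 arrays, treated as independent. The diet effect was more negative in backfat than in liver for 43 of the 59 genes and less negative for none, against 6.36% and 4.53% of all 14001 probe sets tested in both tissues. The median of the difference was -0.66. By complex the counts were 26 of 32 in complex I, 4 of 4 in II, 2 of 2 in III, 3 of 7 in IV and 8 of 14 in V.

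Among the called genes ATP5G1 and SDHC had the largest differences, at -1.12 ± 0.19 (adjusted p = 0.000121) and -1.12 ± 0.17 (adjusted p = 2.099e-05). NDUFA9, an accessory subunit near the ubiquinone site (-1.07 ± 0.26, adjusted p = 0.00562), NDUFA10 (-1.06 ± 0.16, adjusted p = 3.96e-05) and NDUFS7 (-1.03 ± 0.17, adjusted p = 9.3e-05) followed. Within arrays numbered 1 and 2 the count was 18 (1.39% of all probe sets), and within those numbered 3 to 5 it was 31 (3.16%).

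The level of the transcripts in backfat relative to liver depended on the gene. As deposited, 13 genes were higher and 27 lower in backfat (51.4% and 27.4% of all probe sets), with a median of -0.10 against 0.255 over all probe sets. After quantile normalization over the 40 arrays, 27 were higher and 17 lower (43.1% and 34.1% of all probe sets), the members' median turned to 0.10, and the median of all probe sets was 0.09. The split therefore depends on the scaling, and the named genes below kept their direction under both.

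NDUFA7 ran from 9.30 to 10.88 in backfat and from 8.68 to 9.50 in liver (higher by 1.03 ± 0.08, adjusted p = 2.095e-15). NDUFA5 (0.58 ± 0.09), ATP5J (0.52 ± 0.07) and NDUFA1 (0.49 ± 0.06) were higher too, and so was COX8H (1.40 ± 0.52, adjusted p = 0.0147), whose arrays ran from 3.85 to 10.31 in backfat and from 3.75 to 7.79 in liver. On arrays numbered 1 and 2 alone, COX8H stood at 0.34 (adjusted p = 0.649). On the 9 backfat arrays with a muscle marker mean under 8, COX8H lay between 3.85 and 6.73 (median 4.85), within the range of the liver arrays. The other 11 backfat arrays held the values from 7.07 to 10.31. SDHB ran from 12.16 to 13.30 in backfat and from 13.35 to 13.96 in liver, with no overlap (-0.995 ± 0.07, adjusted p = 1.06e-15). NDUFB11 (-0.99 ± 0.08), NDUFC1 (-0.80 ± 0.06), NDUFA2 (-0.67 ± 0.07) and ATP5F1 (-0.63 ± 0.06) were lower as well. For NDUFA1, NDUFV2 and SDHB, another probe set was called the other way, at -0.78, 0.72 and 0.17, so their level between tissues depends on the probe set.

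Genes around the respiratory chain were counted from lists that share no gene with the 59, and their counts are read against the 10.7% of all probe sets called lower and the 15.1% called higher in restricted backfat. Each list gene was represented by its brightest probe set alone. Some have several, such as TFAM with 4 and YY1 with 2, and the others were not examined. In restricted backfat 14 of 16 genes of pyruvate dehydrogenase and the tricarboxylic acid cycle were lower and none higher (median -0.55, against 0.08 over all probe sets). The largest was PDHB, a subunit of pyruvate dehydrogenase (-1.63 ± 0.15, adjusted p = 8.228e-07), followed by MDH2, mitochondrial malate dehydrogenase (-1.12 ± 0.14, adjusted p = 1.08e-05). IDH2, the NADP-linked isocitrate dehydrogenase, stood at 0.02 ± 0.12.

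Of 18 electron carriers and exchange partners 15 were lower (median -0.57). They included CYCS, cytochrome c (-1.16 ± 0.22, adjusted p = 0.000742), VDAC1, the outer membrane channel (-0.93 ± 0.11, adjusted p = 5.144e-06), and ATPIF1, the inhibitor of ATP synthase (-0.87 ± 0.14, adjusted p = 0.000128). SLC25A4, the muscle form of the ADP/ATP carrier, stood at -0.16 ± 0.18 (adjusted p = 0.532), and SLC25A5, a widely expressed form, at -0.57 ± 0.14 (adjusted p = 0.0064). The difference between the carriers was not tested.

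Of 14 assembly factors 5 were lower (median -0.25): NDUFAF1, ECSIT and TMEM126B for complex I, SDHAF2 for complex II and COX10 for complex IV. Of 22 genes of protein import and folding 14 were lower (median -0.36), such as DNAJC19 (-0.84 ± 0.13, adjusted p = 9.953e-05). TOMM20, a receptor of the outer membrane, stood at 0.00 ± 0.08. No list was tested against another.

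Of 9 regulators of mitochondrial gene expression, 2 were higher and 1 lower (median 0.01), shares close to the 15.1% and 10.7% over all probe sets, so the list's counts show no result of their own. TFAM, which packages and transcribes mitochondrial DNA, had a median of 10.59 in restricted and 10.38 in ad libitum backfat (0.24 ± 0.08, adjusted p = 0.0339). YY1, a transcription factor, had a median of 11.72 in restricted and 11.48 in ad libitum backfat (0.32 ± 0.09, adjusted p = 0.0089). SIRT3, a mitochondrial deacetylase, was lower (-0.33 ± 0.11, adjusted p = 0.0271). In liver none of these lists held a called gene. The 13 subunits encoded in mitochondrial DNA were not analysed here, as none had a probe set with a single symbol.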

How the data were processed

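Total RNA of backfat and liver was hybridised to 40 porcine arrays. The authors deposited 1 linear intensity for each probe set and array, on a scale common to the arrays (means after trimming 2% at each end of 500.09 to 500.15). The submitters' processing notes name affy and MAS5, with no version or role. Genes were named through the platform annotation (10069 probe sets with 1 symbol, 198 with several, 13732 unnamed), and 124 control probe sets were left out. The deposited intensities were log2-transformed here without an offset. Groups were compared in a group-means model per tissue, or over 40 arrays between tissues, with limma 3.58.1 in R 4.3.3 (lmFit, eBayes with an intensity trend) after the filter at the 40th percentile, and adjusted by Benjamini-Hochberg over all probe sets tested. Single values were tested by exact permutation of diet within line (or of line within diet) with scipy 1.17.1. The scripts were tested on simulated data. Precision is limited by the number of arrays. No pair of arrays was identical.

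Members and lists were chosen with earlier results of these data known. Genes named were, for the diet effect in backfat, those of smallest p in each complex (8 in complex I, all of complex II, 4 in each other complex) and that of largest p, isoform sets, and genes whose probe sets were called in opposite directions. Elsewhere they were all called genes, or the 5 largest called changes each way where over 10 were called, or the 3 of smallest p where none was called. Further genes were named after their values were seen, among them those that failed the test and those of the other lists. Alternatives were quantile normalization, no filter or the 60th percentile, an offset at the 20th percentile, no trend, a replicate block, each set of numbers, control ratios or muscle mean as covariates, the median probe set, and each array left out. Chosen after seeing the data were the arrays of muscle mean under 8 and the joint covariates.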

Additional observations from a re-analysis of the deposited data

Results flagged for a closer look

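Within groups of 5 arrays, 25 of 276 sets of values held an array set apart from the others by Dixon's criterion, where chance alone gives about 1 in 20. High RFI ad libitum backfat replicate 3 was the low array in 12 of them: NDUFB8 at 11.87, NDUFB5 at 11.05, NDUFA7 at 9.88, NDUFA3 at 10.62, NDUFA9 at 10.81, SDHB at 12.18, SDHC at 11.46, COX7A1 at 9.24, ATP5F1 at 12.60, ATP5G1 at 11.01, ATP5G3 at 12.96 and the mean of complex II at 12.08. Its GAPDH 3' to 5' ratio of 1.81 was the highest of the ad libitum backfat arrays, and its part in these values was not tested. The other 2 in backfat were NDUFA1 on low RFI restricted replicate 2, at 12.14, and ATP5G2 on high RFI restricted replicate 3, at 11.76.

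In liver the arrays set apart were NDUFV3 at 6.63 (low RFI restricted replicate 2), ATP5I at 7.89 (high RFI ad libitum replicate 4) and 7.92 (low RFI restricted replicate 4), COX8H at 7.29 and NDUFA1 at 11.38 (both high RFI restricted replicate 4). The others were ATP5J at 10.18 (low RFI ad libitum replicate 2), SDHB at 13.87 (low RFI restricted replicate 4) and 13.96 (low RFI ad libitum replicate 5), ATP5F1 at 13.18 (high RFI ad libitum replicate 3), the mean of complex I at 10.86 (high RFI restricted replicate 3) and that of complex IV at 11.24 (low RFI restricted replicate 5).

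The diet effect differed between backfat and liver for 43 genes by the test of the difference. The largest of these differences were -1.12 for ATP5G1, -1.12 for SDHC, -1.07 for NDUFA9, -1.06 for NDUFA10 and -1.03 for NDUFS7.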

How the results depend on the processing

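The diet effect in backfat stayed within 1.5 times its 45 lower genes (37 to 48, none higher) under every alternative but those that follow. Arrays numbered 1 and 2 gave 18, the joint covariates 8. For the diet effect in backfat minus that in liver these numbers also gave 18, against 43. Leaving out 1 array gave 42 to 50 lower genes in backfat, 41 to 49 for the tissue difference, and 40 to 42 genes for the level. No gene was called for line, interaction or diet in liver in any of these (0 to 0), except ATP5G2 for diet in liver (1 gene under the replicate block, adjusted p = 0.0461, 1 with control ratios as covariates).

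With group means subtracted, same-numbered arrays of different groups correlated above 0.1 in 23 of 30 backfat pairs and 26 of 30 liver pairs. The medians were 0.202 and 0.183, against -0.055 and -0.076 for different numbers. Because the deviations within a group cancel out, positive values for same numbers force negative ones elsewhere. The medians for different numbers are therefore no separate evidence. Of 20 arrays, 13 and 12 correlated best with their own number, a hint from the data of an effect shared by number. The lowest same-number correlations were 0.02 and -0.004 and no label ties a number to an animal or batch, so the block was kept as an alternative. The replicate block gave 48 lower genes in backfat. In the fits over both tissues the block was another one. It paired each backfat array with the liver array of the same line, diet and number, as if from the same gilt. With that pairing there were 47 genes for the tissue difference and 42 for the level. No label ties these arrays, and the correlations above were taken within each tissue, so they do not bear on the pairing.

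Every direction that reversed belonged to a value that was not called. The diet effect in backfat became 0.18 for NDUFV3 and -0.34 for COX8H on the arrays of muscle mean under 8, 0.079 for NDUFV3, -0.007 for COX8H and 0.21 for ATP5E with the joint covariates, 0.042 for NDUFV3 without high RFI restricted replicate 1 (from -0.272 to 0.042 over the arrays left out), -0.35 for COX8H on numbers 3 to 5, and 0.042 for ATP5E on numbers 1 and 2 and 0.01 with control ratios. The line effect in backfat became -0.085 for ATP5D on numbers 1 and 2, and -0.17, -0.94 and -0.20 for COX8H with the muscle mean as covariate, on the arrays of muscle mean under 8 and with the joint covariates. The interaction in backfat became 0.02 and 0.014 for ATP5B on numbers 1 and 2 and on the arrays of muscle mean under 8, and 0.087 for ATP5G2 on those of muscle mean under 8. The cause was not tested. Of the genes named in backfat, SDHC, SDHD, NDUFA10, NDUFB8 and ATP5B kept their call in all 33 alternatives.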
